A study of Mus musculus with 2 samples.

Results

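Mir140 and Mir455, the microRNA (miRNA) genes best known from chondrocytes, were followed in small RNA libraries of the mouse embryonic limb. They were chosen by name, as cartilage miRNAs within the host genes Wwp2 and Col27a1, and make up 2 of the 1973 miRNA genes of the count tables. Both had at least 10 sense counts in each library, as did 340 genes in all. The limbs came from healthy B6NCrl mouse embryos at embryonic day 15.5, with males and females pooled, and no allele, treatment or second tissue was part of the series. Replicate 1 was a pool of 78 embryos and replicate 2 a pool of 62 embryos, so each library averages over many limbs and hides differences between embryos. The labels call the pools biological replicates but give both the same donor identifier, so the spread between them may not be that between unrelated sources. The single group allows levels to be described and the 2 libraries to be compared with each other, with no comparison between conditions.

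A miRNA is cut from a hairpin precursor by Drosha and Dicer, loaded into Argonaute, and pairs with messenger RNAs mainly through its seed, bases 2 to 8. In cartilage the transcription factor SOX9, which specifies chondrocytes, activates Mir140 and the Col27a1 locus that carries Mir455. Mice without Mir140 have short limb bones and a shortened skull and lose articular cartilage early, and mice without Mir455 also develop cartilage degeneration. In the limb at this stage the future bones are still largely cartilage models, with muscle, vessels, nerves and epidermis around them.

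The mature arms below show how the members differ where targets are recognised, with the seed in capitals. They are given 5′ to 3′ as RNA from RefSeq on GRCm38.p6, in which 3 arms of the members matched by name. The miR-140-5p arm is named only.

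miR-140-3p: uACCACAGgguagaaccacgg

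miR-455-5p: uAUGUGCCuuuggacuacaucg

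miR-455-3p: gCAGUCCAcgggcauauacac

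No seed was common to a Mir140 arm and a Mir455 arm among these, so the listed products of the members address different 7-base matches. The miR-140-3p arm occupies chr8:107551288-107551308 on the plus strand, bases 45 to 65 of a hairpin of 70 bases. The Mir455 arms occupy bases 17 to 38 and 54 to 74 of a hairpin of 82 bases, at chr4:63256867-63256888 and chr4:63256904-63256924 on the plus strand. The counts are totals per hairpin gene, so how the reads divide between the 5p and 3p arms was not analysed here.

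Other miRNAs with the seeds of the arms printed above had almost no counts in these libraries. The seed of miR-140-5p was not searched. Among the 1738 mature mouse sequences of the table, which is not complete, the miR-140-3p seed recurred only in miR-497b. The miR-455-5p seed recurred only in miR-5129-3p, and the miR-455-3p seed in no other entry.

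miR-497b: cACCACAGugugguuuggacgugg

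miR-5129-3p: aAUGUGCCugugcaucucuucc

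Mir497b had 0 sense counts in replicate 1 and 2 in replicate 2. Mir5129 had 1 count in replicate 1 and 0 in replicate 2. A count of 0 allows up to 3 counts, which is 0.704 counts per 1000000 sense counts (CPM) in replicate 1 and 0.582 CPM in replicate 2. With at most 2 counts in any library, neither miRNA reached the detection minimum of 10. Reads with several alignments entered no gene and could belong to such relatives.

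Both hairpins lie inside protein-coding host genes and are read in the direction of the host. Mir140 (ENSMUSG00000065439.1, mm10, chr8:107551244-107551313, plus strand) lies within Wwp2, which encodes a HECT-type ubiquitin ligase. In the protein-coding transcript Wwp2-201 it sits in the intron between exons 16 and 17, an intron of 2141 bases, 1108 bases after one exon and 963 bases before the next. It also falls in the exon of Wwp2-206, a transcript annotated as a retained intron. Mir455 (ENSMUSG00000070102.1, chr4:63256851-63256932, plus strand) lies within Col27a1, which encodes a fibrillar collagen of cartilage. In Col27a1-201 it sits in the intron between exons 10 and 11, which spans 2318 bases, and its hairpin ends only 127 bases before exon 11. No other miRNA gene is annotated within 50 kb of either hairpin, so each member is a single miRNA and not part of a cluster. The libraries held fragments under 30 nt, and host messenger RNA was not measured.

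**Figure D1:**
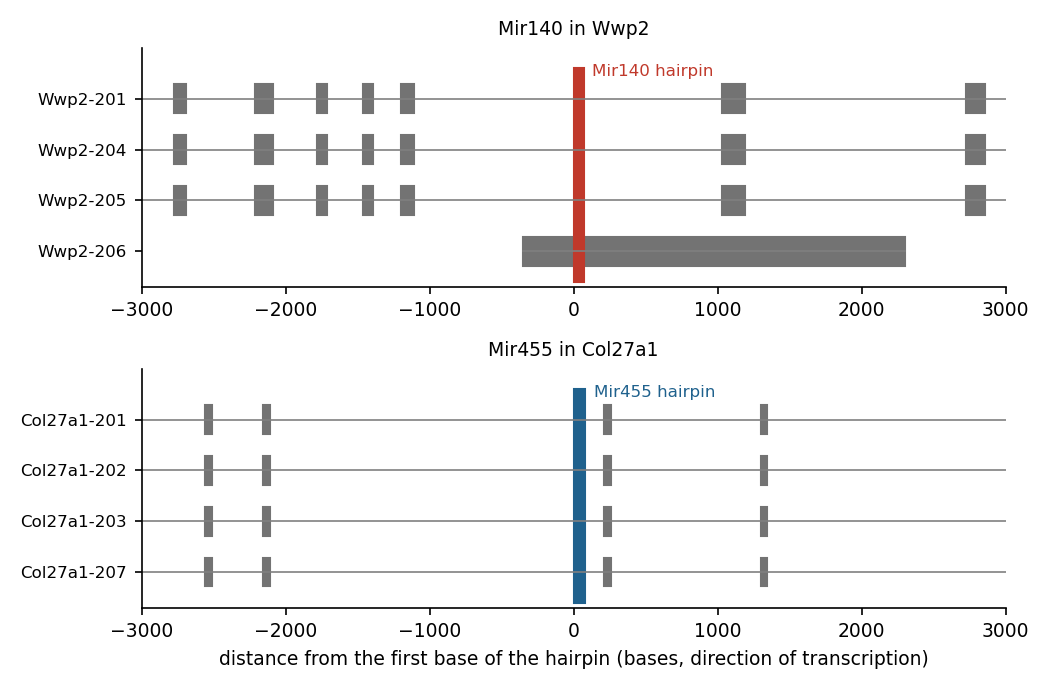
Position of the Mir140 hairpin within Wwp2 (upper panel) and of the Mir455 hairpin within Col27a1 (lower panel). The x axis is the distance in bases from the first base of the hairpin, grey boxes are annotated exons and grey lines introns, and each row is 1 annotated transcript that spans the hairpin; Mir140 is intronic in 3 transcripts and exonic in Wwp2-206, and Mir455 is intronic in all 4, 127 bases before the next exon.

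Mir140 was among the most abundant of the miRNAs counted in the limb. Reads with several alignments, 29.4% of replicate 1 and 29.7% of replicate 2, entered no gene. Genes with several copies can thus be undercounted, and the ranks, shares and median below hold for the counted reads only. Mir140 had 187350 sense counts in replicate 1 and 218336 in replicate 2. These counts correspond to 43941 CPM in replicate 1 and 42385 CPM in replicate 2. One in 22.8 counted miRNA reads of replicate 1 was Mir140, and one in 23.6 of replicate 2. Mir140 thus took 4.39% of replicate 1 (95% interval by Wilson's method 4.37 to 4.41) and 4.24% of replicate 2 (4.22 to 4.26). The level was nearly the same in both pools, with a mean of 43163 ± 1100.3 CPM (SD, n = 2), 259 times the median level of the detected genes. Mir140 ranked 7 of 1973 in replicate 1 and 9 in replicate 2, and 7 by mean CPM.

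In the order of levels, Mir140 stood close to Mir322 and below Mirlet7g. Mir322, whose product slows the cell cycle in differentiating muscle cells, ranked directly below with 43119 ± 627 CPM. The replicate values of Mir140 and Mir322 overlapped, and Mir322 was the higher one in replicate 2 with 43562 CPM. Mir196b, from the HoxA cluster, came next with 40763 ± 6885 CPM and overlapped as well, at 35894 CPM in replicate 1 and 45632 CPM in replicate 2. The ranks of these 3 genes are thus not separated by the spread between the pools. Directly above Mir140, Mirlet7g had 48099 ± 324 CPM and Mir99a had 49851 ± 355 CPM (SD, n = 2 for each gene), and no replicate value of either overlapped those of Mir140.

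Mir455 was a moderately abundant miRNA among the counted reads, with the same limit on ranks, shares and median as for Mir140. It had 15649 sense counts in replicate 1 and 16372 in replicate 2. These are 3670 CPM in replicate 1 and 3178 CPM in replicate 2, with a mean of 3424 ± 348 CPM (SD, n = 2). By Wilson's method its share of replicate 1 was 0.367% (95% interval 0.361 to 0.373), and its share of replicate 2 was 0.318% (0.313 to 0.323). Mir455 was about 1 in 272 counted reads of replicate 1 and 1 in 315 of replicate 2. It ranked 53 in replicate 1 and 58 in replicate 2, and 54 by mean CPM, at 20.5 times the median of the detected genes.

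Around Mir455 the levels lay close together, and its place in the order is uncertain by several ranks. Mir296, from the imprinted Gnas locus, ranked directly below with 3398 ± 92.0 CPM, and Mir10a, from the HoxB cluster, next with 3339 ± 125 CPM. Both overlapped Mir455 in their replicate values, as did Mir106b, second above with 3978 ± 470 CPM. Directly above, Mir27b had 3902 ± 261 CPM (SD, n = 2 for each gene), with its lower replicate at 3718 CPM, just over the higher Mir455 value. Mir27b shares a stretch of 20 bases with its paralog Mir27a, and reads common to both entered neither, so its level can be too low.

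**Figure D2:**
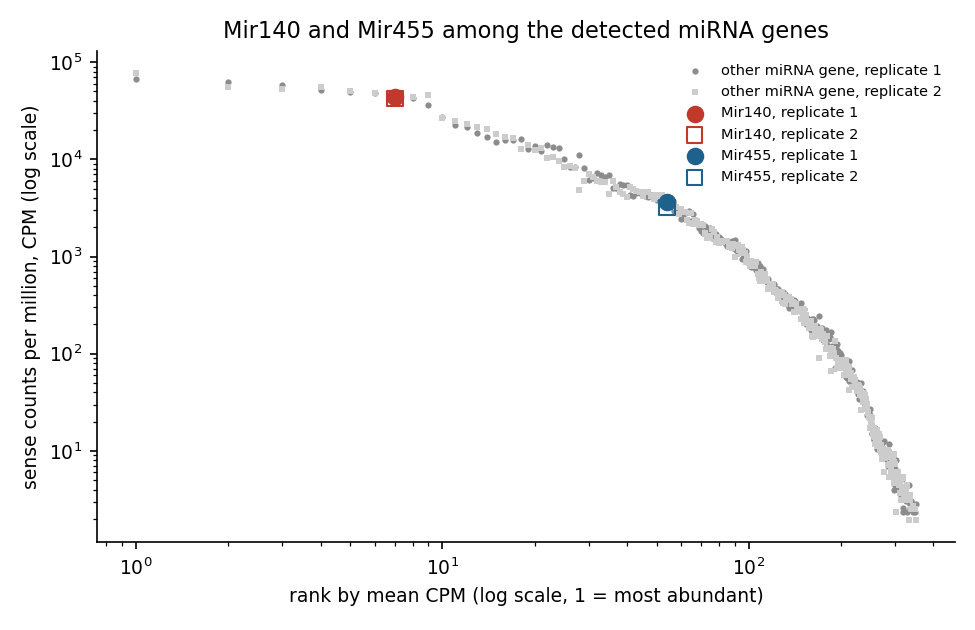
Sense-strand level (CPM, y axis, log scale) of the 340 detected miRNA genes against their rank by mean CPM (x axis, log scale), with 1 point per gene and replicate. Mir140 sits at rank 7 with 43941 CPM in replicate 1 and 42385 CPM in replicate 2, on the upper shelf of the curve, and Mir455 at rank 54 with 3670 and 3178 CPM in the same replicates.

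Reads of both members could be assigned without ambiguity between miRNA genes. Neither hairpin shares a stretch of 20 bases with another annotated miRNA precursor on either strand. In the annotated mouse transcripts the full miR-455-5p and miR-455-3p sequences occur in Mir455 alone, and miR-140-3p occurs in Mir140 and in the overlapping Wwp2 transcript. The genome outside annotated transcripts was not searched. Antisense counts were 2 in each replicate for Mir140 and 0 in each replicate for Mir455, so practically every read came from the strand of the hairpin.

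Mir140 exceeded Mir455 by more than 10-fold in both pools. One read stands for 1 mature molecule of similar length, so counts of the 2 genes were compared directly, as levels not divided by hairpin length. The ratio of Mir140 to Mir455 counts was 12.0 in replicate 1 (exact 95% interval 11.8 to 12.2) and 13.3 in replicate 2 (13.1 to 13.6). The mean ratio was 12.7 ± 0.964 (SD, n = 2). Divided by hairpin length, a scale on which the longer Mir455 hairpin counts for less, the mean ratio was 14.8. Whether both sequences were captured by the library chemistry with equal efficiency was not tested, and the ratio of reads need not be the ratio of molecules. Together the members took 4.76% of the sense counts of replicate 1 and 4.56% of replicate 2, and Mir455 made up 7.71% of the pair in replicate 1 and 6.98% in replicate 2.

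Between the libraries, both members were slightly higher in replicate 1, and Mir455 by more than Mir140. Mir140 was 1.04-fold higher in replicate 1 than in replicate 2, a log2 ratio of 0.05 with a counting interval of 0.04 to 0.06. For Mir455 the difference was 1.15-fold, a log2 ratio of 0.21 with a counting interval of 0.18 to 0.24. Both passed the exact conditional binomial test with Benjamini-Hochberg adjustment over the 340 detected genes, with an adjusted p of 1.54e-29 for Mir140 and 5.14e-37 for Mir455. At this depth the test calls very small differences. In all, 50.9% of the detected genes were called, 25.6% higher in replicate 1 and 25.3% higher in replicate 2, and 81.4% of the 156 genes with a mean of at least 1000 sense counts. The overall share depends on the count minimum, at 31.5% of the genes with at least 1 count in both libraries and 67.6% of those with at least 100. That both members were called is therefore near what most well counted genes show, and it compares 2 libraries, not conditions.

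Against the spread between the pools, Mir140 was among the steadier miRNAs and Mir455 was ordinary. The log2 ratios of all detected genes had a median of -0.02 and an SD of 0.38, and those of the 156 well counted genes had an SD of 0.25. A larger absolute log2 ratio than that of Mir140 was found for 297 of the 340 detected genes (87.4%) and for 133 of the 156 well counted ones (85.3%). For Mir455 these counts were 174 of 340 (51.2%) and 66 of 156 (42.3%). The coefficient of variation between the replicates was 2.55% for Mir140 and 10.2% for Mir455, both below the common biological coefficient of variation of 14.8% that edgeR estimated for these libraries. With n = 2 each of these values is itself imprecise.

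The proportion of Mir140 to Mir455 differed between the pools by more than counting noise. It was 0.898 times as high in replicate 1 as in replicate 2 (95% Woolf interval 0.878 to 0.918). Fisher's exact test of the 4 counts gave a two-sided p of 1.71e-20. This comparison needs no library total, so it does not depend on scaling, but it again contrasts 2 pools and not 2 conditions. On the log2 scale the change of the proportion was -0.156. The median absolute log2 ratio between the pools was 0.213 for the detected genes and 0.165 for the 156 well counted genes. Those medians describe single genes, while the change is a difference between 2 genes, so they are not like measures.

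The genes with the log2 ratio most like that of each member are named by distance, among genes with a mean of at least 1000 sense counts, and rest on 2 libraries only. For Mir140, at 0.05, they were Mir320 at 0.05, Mir30a at 0.04 and Mir148a at 0.04. For Mir455, at 0.21, they were Mir139 at 0.21, Mir350 at 0.20 and Mir542 at 0.22. None of these 6 lies on the chromosome of its member, and all values share the same library totals.

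Among 21 other miRNA genes linked to chondrocytes or cartilage genes, none exceeded Mir140 by mean CPM and 5 exceeded Mir455. Mir322 was above Mir140 in replicate 2 alone. Mir322, Mir214, Mir21a, Mir22 and Mir27b were the 5, and 19 of the 21 genes were detected. Mir214, from the Dnm3os transcript of skeletal mesenchyme, had 18755 CPM in replicate 1 and 21793 CPM in replicate 2, a mean of 20274 ± 2148 CPM. Mir140 was 2.13 times as abundant by mean CPM. Mir675, from the imprinted H19 transcript and regulated by SOX9 in human chondrocytes, had 108 CPM in replicate 1 and 90.1 CPM in replicate 2. Mir140 was 437 times and Mir455 34.6 times as abundant as Mir675, so the SOX9-linked miRNAs spanned very different levels.

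Several of these genes are known for direct effects on cartilage regulators, and most were far below both members. Mir145a, which represses Sox9, had 183 CPM in replicate 1 and 143 CPM in replicate 2. Mir29a, of the family that represses collagen messenger RNAs, had 142 CPM in replicate 1 and 111 CPM in replicate 2. Mir204, which represses the bone and hypertrophy factor Runx2, had 304 CPM in replicate 1 and 363 CPM in replicate 2, and its relative Mir211 had 7.97 and 9.90 CPM in the same replicates. Mir34a had 367 and 398 CPM, and Mir337 had 1704 and 1420 CPM, again in replicates 1 and 2. In each of these 6 genes both replicates stayed below the lower Mir455 value. Mir199a-1, Mir199a-2, Mir26a-1, Mir138-1, Mir365-1, Mir365-2 and Mir29b-1 each share 20 bases with another copy, and Mir29b-1 and Mir365-1 fell under the detection minimum. Reads common to the copies entered no count, so the true level of these 7 genes can be higher.

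**Figure D3:**
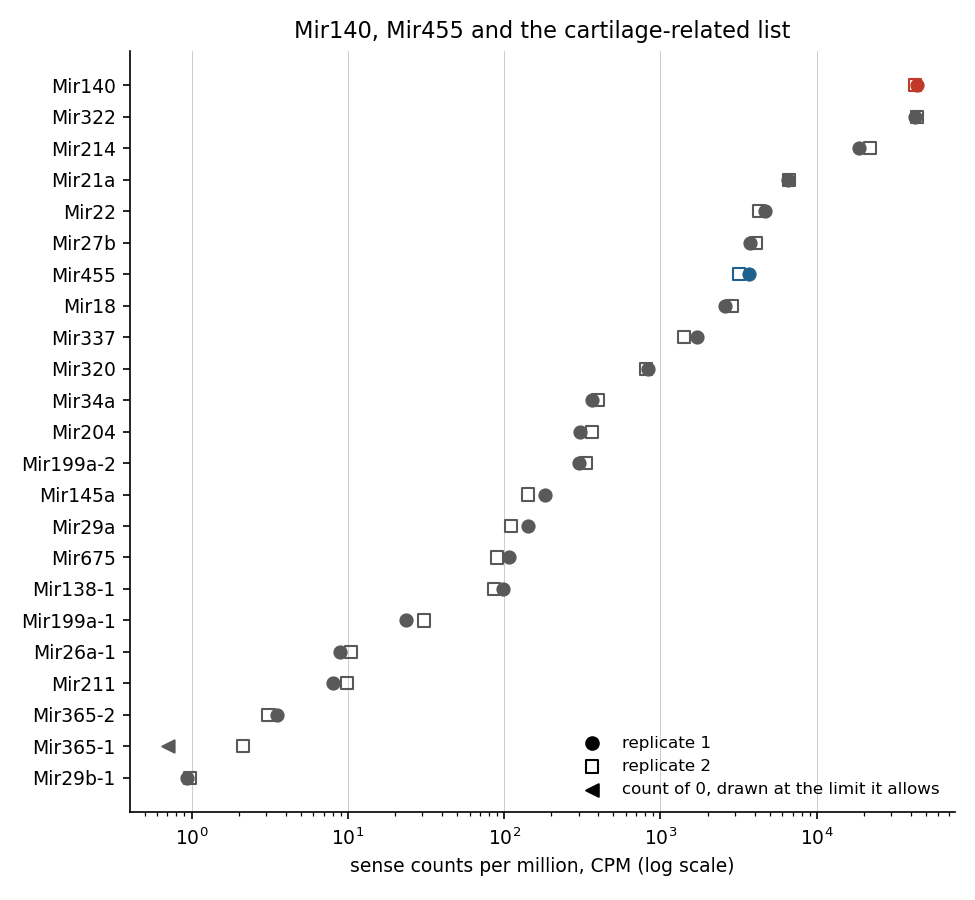
Sense-strand level (CPM, x axis, log scale) of Mir140, Mir455 and the 21 cartilage-related miRNA genes (y axis, ordered by mean), with a filled circle for replicate 1, an open square for replicate 2 and a triangle at 0.704 CPM for the count of 0 of Mir365-1 in replicate 1. Mir140 and Mir322 lie together at the top, with means of 43163 and 43119 CPM, and Mir455 lies between Mir27b and Mir18, the gene also called Mir18a.

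The cartilage-related list did not move with the members as a whole. Of its 19 detected genes 8 were higher and 11 lower in replicate 1. Past the threshold were 12, with 5 higher and 7 lower in replicate 1, beside 50.9% called over all detected genes. The median log2 ratio of the list was -0.03, beside -0.02 over all detected genes. The 5 called higher were Mir675, Mir145a, Mir29a, Mir22 and Mir337, with log2 ratios of 0.26, 0.36, 0.36, 0.14 and 0.26 in that order. The 7 called lower were Mir214, Mir322, Mir27b, Mir18, Mir199a-2, Mir34a and Mir204. Their log2 ratios were -0.22, -0.03, -0.14, -0.16, -0.16, -0.12 and -0.26 in that order. Mir675 (adjusted p = 0.0152, exact binomial test) lay on the same side as Mir140 and Mir455, and the more abundant Mir322 and Mir214 lay on the other.

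Markers of the other limb tissues moved both ways, and the skeletal muscle miRNAs moved most. The 4 muscle genes Mir206, Mir133b, Mir208b and Mir499 summed to 11549 CPM in replicate 1 and 4985 CPM in replicate 2, and all 4 were called higher in replicate 1, with a median log2 ratio of 1.27, beside 25.6% of all detected genes called higher. Mir133b shares 20 bases with other copies. The smooth muscle and fibroblast genes Mir143 and Mir145a, of which Mir145a is also in the cartilage-related list, were both called higher and summed to 10332 CPM in replicate 1 and 8437 CPM in replicate 2. The epidermal Mir203 and Mir205, 2 of 2 called lower, summed to 83441 CPM in replicate 1 and 94033 CPM in replicate 2. The endothelial Mir126a, called lower, had 21698 CPM in replicate 1 and 22975 CPM in replicate 2. Over all detected genes 25.3% were called lower, and since 81.4% of well counted genes were called in either direction, calls of Mir203, Mir205, Mir143 and Mir126a are near the background. The part of these tissues in the Mir140 and Mir455 differences was not tested. In such bulk samples fewer chondrocytes and less miRNA per chondrocyte cannot be told apart.

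The counted markers of blood and liver stood far below the members, and those of nerve and the 1 counted for bone had few or no counts. The erythroid Mir451a and Mir144 summed to 424 CPM in replicate 1 and 411 CPM in replicate 2, with neither called. The leukocyte Mir223 and Mir155 summed to 601 CPM in replicate 1 and 657 CPM in replicate 2, and Mir155 was called lower. The hepatocyte Mir122, called lower, had 57.5 CPM in replicate 1 and 86.2 CPM in replicate 2. Of the neuronal genes, 3 copies of Mir124 and Mir9-2 had a count of 0 in both replicates, and Mir9-3 had 9 counts in replicate 1 and 7 in replicate 2, all of them genes that share 20 bases with another copy. Reads common to the copies entered no gene, so these counts do not show the level of nerve miRNAs. The osteoblast-related Mir2861, the only bone gene counted, had 1 count in replicate 1 and 0 in replicate 2. A single gene does not show the level of bone miRNAs. Mir142, Mir9-1 and Mir3960 were not analysed here.

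Among the ratios of Mir140 to single other miRNAs, that to the muscle miRNA Mir206 differed most between the pools. Mir140 counts were 0.648 times those of the epidermal Mir203 in replicate 1 and 0.548 times in replicate 2. Against the endothelial Mir126a, which acts in vessel growth, Mir140 stood at 2.03 in replicate 1 and 1.84 in replicate 2. The ratio of Mir140 to the skeletal muscle miRNA Mir206 was 3.98 in replicate 1 and 8.85 in replicate 2. In relative terms this was the widest gap of the 6 miRNAs set beside Mir140. Mir206 itself was 2.31-fold higher in replicate 1, and Mir140 1.04-fold. Mir455 relative to Mir206 was 0.332 in replicate 1 and 0.664 in replicate 2. Relative to Mir675, which had only 459 and 464 counts, Mir455 was nearly constant, at 34.1 in replicate 1 and 35.3 in replicate 2. Against the smooth muscle and fibroblast miRNA Mir143 it was similarly steady, at 0.362 and 0.383. Relative to Mir203, Mir126a and Mir214, Mir455 was higher in replicate 1 (0.0542, 0.169 and 0.196) than in replicate 2 (0.0411, 0.138 and 0.146).

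**Figure D4:**
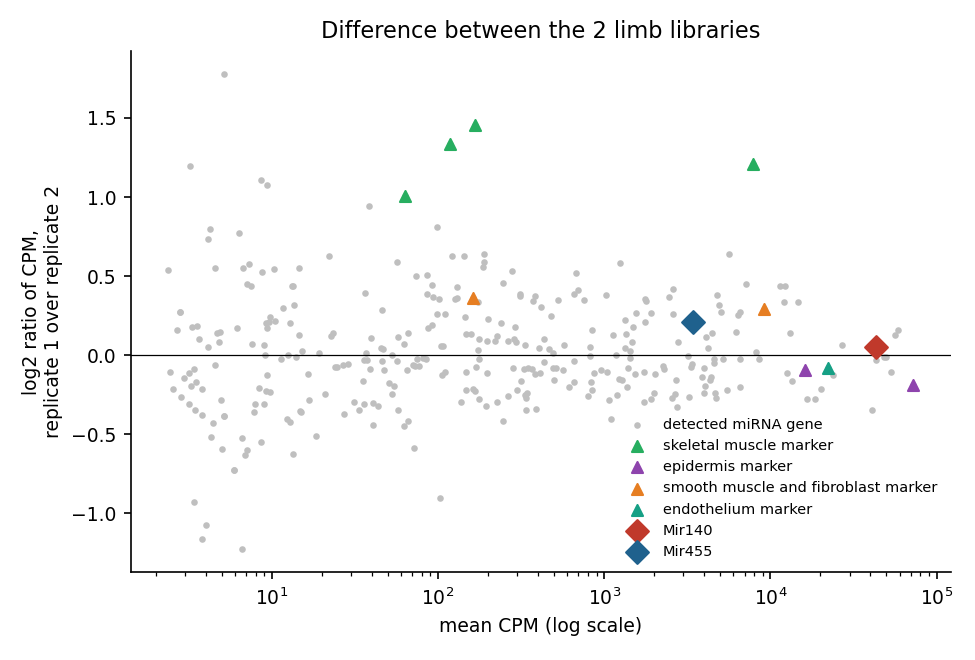
Log2 ratio of CPM, replicate 1 over replicate 2 (y axis), against mean CPM (x axis, log scale) for the 340 detected miRNA genes, 1 point per gene, with Mir140 and Mir455 as diamonds and tissue markers as triangles. Mir140 lies at 0.05 and Mir455 at 0.21, while the 4 skeletal muscle markers lie at 1.01 or above and the epidermal and endothelial markers below 0.

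Seed matches in messenger RNAs that published work names as targets show what the arms could pair with, as sequence alone. In the longest annotated 3′ UTR of each gene on GRCm38, read on the transcript strand only, the match to bases 2 to 8 was searched, for each member in its own listed genes only. None of the genes searched for both Mir455 motifs held both. Over all 3′ UTRs 7.91% hold the miR-455-5p motif and 11.9% the miR-455-3p motif. The share that holds both was not computed, so nothing about the arms follows from this. For miR-140-3p the motif CTGTGGT was found in 1 of 8 listed genes, which were listed for miR-140 without regard to the arm. Adamts5, which encodes an aggrecan-degrading protease, held 2 matches in 6437 bases. The motif was present in 16.1% of all 21020 3′ UTRs and in 55.3% of those of like length, from 0.8 to 1.2 times as long. Hdac4, Dnpep, Sp1, Smad3, Cxcl12, Igfbp5 and Pdgfra held no match. For these genes 15.2% (Dnpep) to 47.5% (Sp1) of 3′ UTRs of like length hold the motif. Several of the 8 listed genes are known as targets through miR-140-5p, which was not searched.

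For miR-455-5p the motif GGCACAT, present in 7.91% of all 3′ UTRs, occurred in 2 of 5 listed genes. Acvr2b, an activin receptor, held 1 match (7.99% of 3′ UTRs of like length hold it), and Chrdl1, an antagonist of bone morphogenetic proteins, held 1 (13.7%). For miR-455-3p the motif TGGACTG, present in 11.9% of all 3′ UTRs, occurred once in Smad2, a mediator of TGF-beta signals (34.8%), and in 2 places in Hif1an, an inhibitor of hypoxia-inducible factors (31.0%). Epas1, a hypoxia-inducible factor that promotes cartilage breakdown, held neither motif. Examples are printed 5′ to 3′ as DNA letters of the transcript, with the match in capitals, to set beside the seeds above.

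Adamts5, bases 56 to 62 of the 3′ UTR, miR-140-3p: catcgcagatacagCTGTGGTg

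Acvr2b, bases 668 to 674, miR-455-5p: ctacactggacttgGGCACATt

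Chrdl1, bases 1133 to 1139, miR-455-5p: attagccattcctaGGCACATg

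Hif1an, bases 1610 to 1616, miR-455-3p: cttacagcgccccaTGGACTGa

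Of these 4 sites only that in Hif1an is followed by A, the base that extends a seed match to its strongest form. The other Hif1an match, at bases 106 to 112, and the other Adamts5 match, at bases 2 to 8, are not followed by A. Long 3′ UTRs hold any 7-base motif often, and no messenger RNA or protein was measured, so nothing about repression follows from these letters.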

How the data were processed

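Small RNA of limb pools was sequenced in 2 libraries. The authors deposited raw whole-number counts of reads for each miRNA gene. Per the deposited README, the assembly was mm10 and the annotation M4. The aligner, the counter and adapter trimming are not given in the sources used here. The tables had no header. In every gene the first count column equalled the sum of the other 2, which were read as sense and antisense counts. Reads with several alignments (29.4% of replicate 1 and 29.7% of replicate 2) and unmapped reads entered no gene.

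Replicate 1 held 4263630 sense counts among 9187400 reads, and replicate 2 held 5151214 among 10851823. GENCODE M21 on GRCm38, the assembly of mm10, named 1894 of the 1973 identifiers. CPM is sense counts over the sense total of the library times 1000000. Genes with at least 10 sense counts in both libraries were tested with a two-sided exact conditional binomial test given the totals (scipy 1.17.1 on Python 3.11.15), checked on simulated counts. The simulated counts held counting noise alone and no spread between pools, so the check does not cover that spread. Benjamini-Hochberg adjustment ran over all these genes, and adjusted p-values under 0.05 were called. edgeR 4.0.16 in R 4.3.3 gave the common dispersion and TMM factors, and DESeq2 1.42.0 gave size factors. With 1 group no quasi-likelihood test had a contrast. No molecular identifiers are named, so p-values, intervals and limits for a count of 0 cover counting error only.

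The members and lists were chosen with earlier results of these data known. Genes named beside the members are the 2 above and the 2 below in mean CPM, the 3 nearest in log2 ratio among genes with a mean of at least 1000 sense counts, those with a common seed, and genes of the cartilage and tissue lists. Alternatives changed the denominator, strand, scaling, count minimum, division by length and the replicates used.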

Additional observations from a re-analysis of the deposited data

How the results depend on the processing

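Of the 40 alternative values, 30 kept to the main value and 10 moved, and none turned round. Some of these outcomes were fixed in advance, so the tally does not measure robustness. Leaving out 1 replicate always shifts a level or ratio by less than the SD over n = 2, the limit used here. A count minimum does not enter the log2 ratio of a member. Only the log2 ratios and the change of the Mir140 to Mir455 ratio could turn round. The levels depend on the denominator. Mir140 stood at 41716 CPM with a denominator of both strands, also when its own counts were taken from both strands. It stood at 85126 CPM without the 10 most abundant genes in the denominator and at 20256 per 1000000 of all reads of the library. Mir455 stood at 6749 and 1606 under the last 2 denominators. Counted on both strands, Mir455 ranked 58. With 1 replicate left out, Mir140 was 42385 to 43941 CPM at ranks 7 to 9, Mir455 was 3178 to 3670 CPM at ranks 53 to 58, and their ratio was 12.0 to 13.3. Per base of hairpin the ratio was 14.8. The log2 ratios stayed above 0 and past the threshold under TMM, DESeq2, other count minimums, both strands and totals without the top 10 genes, at 0.02 to 0.07 for Mir140 and 0.18 to 0.23 for Mir455. The value of 0.02 for Mir140 came from totals without the 10 most abundant genes, where the adjusted p was 1.18e-05 (exact binomial test; the smallest over the alternatives was 2.81e-56). The number of called genes ranged over 167 to 184, and the share called over 31.5% (at least 1 count in both libraries) to 67.6% (at least 100). Depth limits no statement about Mir140 or Mir455, but 2 pools limit what their spread can show.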
